A study of Homo sapiens with 5 samples.

Results

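Stretches of mitochondrial DNA have been copied into the nuclear chromosomes during evolution, and the gene-sized parts of these inserts are annotated as pseudogenes named after the mitochondrial gene they resemble. The copies described here are all genes of the RefSeq table on chromosomes 1 to 22 and X whose symbol is that of a mitochondrial complex I (MTND), complex IV (MTCO), ATP synthase (MTATP), cytochrome b (MTCYB) or ribosomal RNA (MTRNR) gene followed by P or L and a number. The rule found 479 symbols. MTND1P13, whose coordinates were out of order for its chromosome, was left out, so that 478 of the table's 58419 genes in coordinate order on these chromosomes were analysed. All 478 are classed as pseudogenes in the table.

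FOXO3A occupancy in THP-1 and in U-937 cells was measured with CUT&Tag, an assay in which an antibody brings a transposase to its target so that the DNA around it is cut and tagged for sequencing. Both are established human cell lines, untreated as far as the labels say, which class both as acute myeloid leukemia cells. All libraries used the same FOXO3A antibody. No control library, such as an IgG library, was analysed here. There were 3 libraries of THP-1 cells and 2 of U-937 cells. Peaks were listed for replicate 1 of each line, with 1282 for THP-1 and 2272 for U-937, and the lists of THP-1 replicates 2 and 3 and of U-937 replicate 2 held 0. On chromosomes 1 to 22 and X there were 948 THP-1 and 2272 U-937 peaks, and the mitochondrial genome carried 0 peaks in each list. Whether mitochondrial reads or peaks were removed is unknown. With 1 list per line no difference below has a replicate check and none was tested. The depth behind each peak is unknown.

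Mitochondrial DNA is a small circle whose genes lie close together. MT-CO1, MT-CO2 and MT-CO3 encode the core of cytochrome c oxidase, the MT-ND genes encode subunits of NADH dehydrogenase, MT-ATP6 and MT-ATP8 encode ATP synthase subunits, and MT-RNR1 and MT-RNR2 encode the ribosomal RNAs. A nuclear insert that holds several genes usually keeps their mitochondrial order, and its copies are decayed to different degrees. FOXO3A is a forkhead transcription factor. Copies that are near-identical to each other or to the mitochondrial genome can share reads. How such reads were assigned is not stated in the labels or the lists. The placement of a peak on 1 particular copy is therefore uncertain throughout.

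The number of copies differed between parent genes. MTCO1 had the most with 57, followed by MTCO3 with 46, MTND5 with 45, MTCYB with 43, MTND2 and MTND4 with 40 each, MTND6 with 35, MTND1 and MTCO2 with 34 each, MTATP6 and MTND4L with 31 each, MTND3 with 25, MTRNR2 with 13 and MTATP8 with 4. MTRNR1 had 0 copies under these symbols. The 13 MTRNR2 copies are the MTRNR2L genes, which carry reading frames resembling the humanin peptide. Copies within 1000 bp of each other were counted as 1 insert, since they share a source. This gave 178 inserts, of which 76 held 1 copy and the largest held 12 copies. In 50 of the 102 inserts with several copies the genes ran in the mitochondrial order, in 48 they ran in the reverse order and in 4 the order was mixed. The longest insert, MTND1P4 to MTCYBP5 on chromosome 7, spanned 12365 bp.

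A peak overlapped 15 of the 478 copies in THP-1 (3.14%, exact 95% interval 1.77 to 5.12) and 18 in U-937 (3.77%, 2.25 to 5.89). A peak counted where it overlapped the span by at least 1 bp, and intervals cover counting error only. Over all genes of the table the share was 0.529% for THP-1 peaks and 2.98% for U-937 peaks. The U-937 share of all genes lies within the interval for the copies. The copies are short, with a median length of 676.5 bp. Among the 14570 other pseudogenes, which are closer in length, 16 had a THP-1 peak (0.110%) and 5 had a U-937 peak (0.0343%). The copies cover 380 kb in all and held 13 distinct peaks in each line, or 34.2 peaks per Mb in either. The other pseudogenes held 0.724 THP-1 and 0.213 U-937 peaks per Mb. No test was made of these shares, as each line had 1 list and copies of 1 insert are not independent.

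The tallies of copies with a peak by parent gene differed between the lists, without a test of the difference. MTND2, MTCO1, MTATP8, MTATP6 and MTND4 had such copies in both lines. In THP-1, 8 of the 15 were MTCO1 copies. MTND1, MTND2, MTATP8, MTATP6, MTND4L, MTND4 and MTCYB each had 1, and MTRNR2, MTCO2, MTCO3, MTND3, MTND5 and MTND6 had 0. In U-937, MTND4, MTND5 and MTND6 each had 3 copies with a peak, MTCO1 and MTATP6 had 2 each, and MTRNR2, MTND2, MTCO2, MTATP8 and MTCO3 had 1 each. MTND1, MTND3, MTND4L and MTCYB had 0 in U-937. Of the 57 MTCO1 copies 14.0% had a THP-1 peak (6.26 to 25.8) and 3.51% had a U-937 peak (0.428 to 12.1). Copies of the other genes had a share of 1.66% for THP-1 peaks (7 of 421, 0.671 to 3.40) and 3.80% for U-937 peaks (16 of 421, 2.19 to 6.10). MTCO1 was set apart from the other genes, here and below, after these values were seen. For MTND5, 0 of 45 copies in THP-1 allows a share of up to 6.67%, against 6.67% with a peak in U-937 (1.40 to 18.3), so that a difference was not detectable for this gene at this number of copies.

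**Figure D1:**
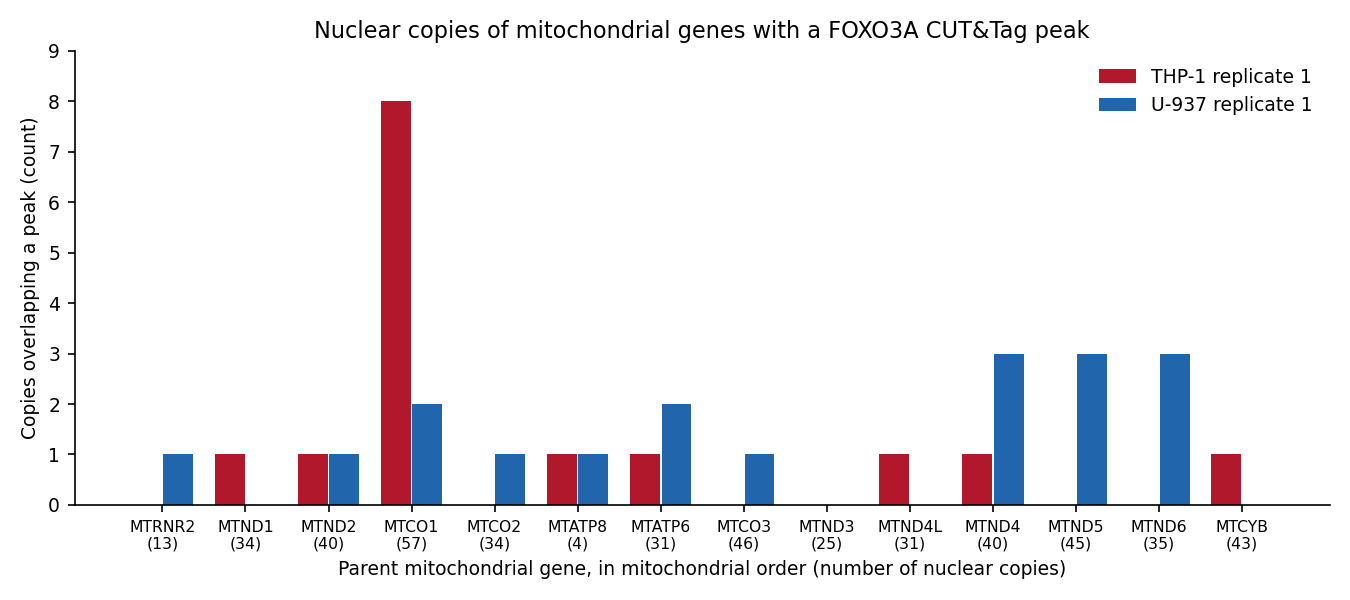
Number of nuclear copies overlapping a peak (bars, vertical axis, count) for each parent mitochondrial gene in mitochondrial order, with the number of copies in brackets, in THP-1 (red) and U-937 (blue) replicate 1. MTCO1 has 8 THP-1 and 2 U-937 copies with a peak, and MTND4, MTND5 and MTND6 have 3 each in U-937.

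Most THP-1 peaks at MTCO1 copies ranked high in their list. The authors' fold enrichment (a ratio to a background the sources leave unnamed) was 33.8 at MTCO1P10, 32.3 at MTCO1P42 and 31.8 at MTCO1P24, which ranked 2, 5 and 6 of 948 peaks. It was 21.9 at MTCO1P18, 21.8 at MTCO1P11, 16.1 at MTCO1P4, 10.2 at MTCO1P22 and 5.18 at MTCO1P2. The MTCO1P2 peak thus stood apart at the low end and ranked 696. The -log10 q of the same peaks ran from 7.01 at MTCO1P2 to 732 at MTCO1P10, with 552 at MTCO1P11, 458 at MTCO1P42 and 420 at MTCO1P24. By -log10 q the MTCO1P10 peak ranked 13. Fold enrichment is the peak's own value in the authors' list and is compared within a list only.

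The other 5 THP-1 peaks had a lower median fold than the MTCO1 peaks, although 3 of them lay above the MTCO1P2 peak. The peak over MTATP8P2 and MTATP6P28 had a fold enrichment of 8.59, that at MTND2P28 had 7.10, that over MTND4LP1 and MTND4P24 had 6.87, that at MTND1P14 had 5.14 and that at MTCYBP35 had 3.54. Their median was 6.87, against 21.9 for the 8 peaks at MTCO1 copies and 6.67 for the 935 other peaks of the list. The MTCYBP35 peak ranked 909 of 948, with a -log10 q of 5.16, and was the weakest of the 13 by both measures. MTND2P28 combined a middling fold with a -log10 q of 93.3, above those of MTCO1P22 (88.4), MTCO1P4 (45.5) and MTCO1P2.

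In U-937 the 3 highest folds of the whole list were at copies. The peak over MTATP8P2 and MTATP6P28 had a fold enrichment of 22.03, MTCO1P2 had 20.4 and MTCO1P40 had 18.3. MTRNR2L12 followed at rank 9 with 14.0, MTCO2P2 at rank 30 with 12.4, the peak over MTND5P12 and MTND6P3 at rank 57 with 11.3 and MTND4P24 at rank 93 with 10.6. The remaining 6 peaks lay lower, with folds of 7.46 at MTND4P12, 7.01 at MTND4P35, 5.05 over MTATP6P1 and MTCO3P12, 5.02 over MTND6P22 and MTND5P10, 4.96 at MTND2P28 and 4.65 over MTND6P4 and MTND5P11. The median over the 13 peaks was 10.6, against 6.15 for the 2259 other peaks of the list. Of the 13 peaks, 9 lay above the list's median by fold and 13 by -log10 q.

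Fold and -log10 q ordered the U-937 peaks differently. The MTND4P12 peak had rank 630 by fold and rank 4 by -log10 q (39.4), and that at MTND4P35 had rank 777 by fold and rank 11 by -log10 q (23.7). The peak over MTATP6P1 and MTCO3P12 ranked 1639 by fold and 45 by -log10 q (16.3). Of the 100 THP-1 peaks with the highest -log10 q 5 were at copies, as were 5 of the 100 with the highest fold. In U-937 there were 12 by -log10 q and 7 by fold. All 13 peaks of each line had a -log10 q of at least 5, which 80.1% of the other THP-1 peaks and 47.0% of the other U-937 peaks reached.

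**Figure D2:**
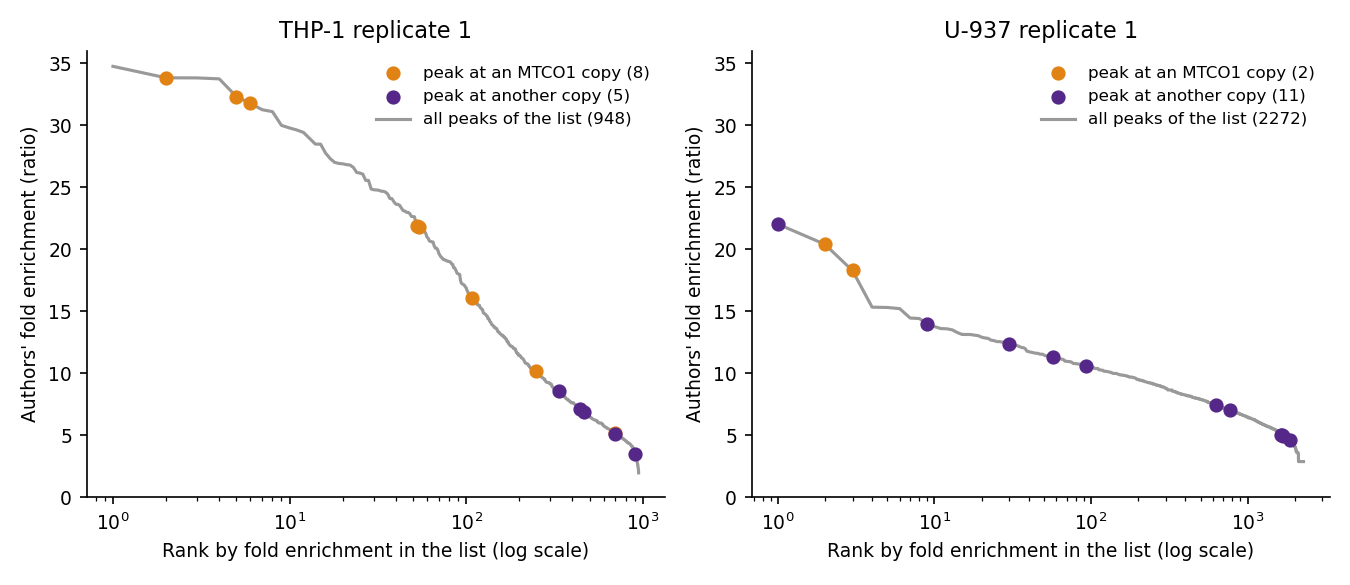
The authors' fold enrichment (vertical axis, ratio) against rank in the list (horizontal log axis) for THP-1 (left, 948 peaks) and U-937 (right, 2272 peaks). Grey lines are all peaks, orange points are peaks at MTCO1 copies and purple points peaks at copies of other genes. In THP-1 the MTCO1 copies reach rank 2 and the others rank 334 at best, and in U-937 the 3 top ranks are at copies.

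Most MTCO1 copies with a THP-1 peak were long. Their lengths were 726 bp at MTCO1P42, 1030 at MTCO1P2, 1360 at MTCO1P22, 1419 at MTCO1P18, 1528 at MTCO1P11, 1558 at MTCO1P24, 1876 at MTCO1P4 and 2249 at MTCO1P10, against 1542 bp for MT-CO1 itself. The median was 1474 bp, against 712 bp for the 49 MTCO1 copies without a THP-1 peak. Of the 27 MTCO1 copies of at least 1000 bp, 7 had a THP-1 peak (25.9%, 11.1 to 46.3), against 1 of 20 copies from 300 to under 1000 bp and 0 of 10 shorter ones. The other 20 of these 27 long copies had no THP-1 peak. MTCO1P7 on chromosome 2, with 1542 bp as long as the parent gene, MTCO1P13 on chromosome 17 with 1541 bp and MTCO1P12 on chromosome 1 with 1543 bp carried a peak in neither line.

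Among copies of the other genes, those with a peak had the lower median length in both lines. The 7 with a THP-1 peak had a median of 399 bp, against 672.5 bp for the 414 without. In U-937 the 16 with a peak had a median of 614 bp, against 672 bp for the 405 without. A peak over 2 copies counts with each, so the 7 copies held 5 peaks and the 16 held 11. In THP-1, 1 peak lay over MTATP8P2 (202 bp) and MTATP6P28 (263 bp), and 1 over MTND4LP1 (157 bp) and MTND4P24 (399 bp). These short copies weigh on the THP-1 median. By length class, U-937 peaks were at 6.09% of the other genes' copies of at least 1000 bp (7 of 115), 2.59% of those from 300 to under 1000 bp (6 of 232) and 4.05% of the shorter ones (3 of 74). As a percentage of the parent gene's length, the median was 97.6% with and 95.9% without a THP-1 peak, and 99.3% with and 95.9% without a U-937 peak. Over all copies the THP-1 medians were 1047 bp with a peak and 675 bp without, and the U-937 medians were 653 bp with a peak and 676.5 bp without. Of the 84 copies under 300 bp, 3 had a peak in each line (3.57%). Of the 252 copies from 300 to under 1000 bp, 3 had a THP-1 peak (1.19%) and 7 a U-937 peak (2.78%). Of the 142 longer copies, 9 had a THP-1 peak (6.34%) and 8 a U-937 peak (5.63%). Of the other pseudogenes of at least 1000 bp, 0.303% had a THP-1 peak and 0.0650% a U-937 peak. The 5 longest copies with a peak in neither line were MTND4P19 (11203 bp), MTND5P46 (2665 bp), MTCYBP21 (2588 bp), MTND5P3 (2101 bp) and MTND5P44 (2053 bp). All 5 exceed their parent genes, MTND4P19 by far, as MT-ND4 has 1378 bp.

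**Figure D3:**
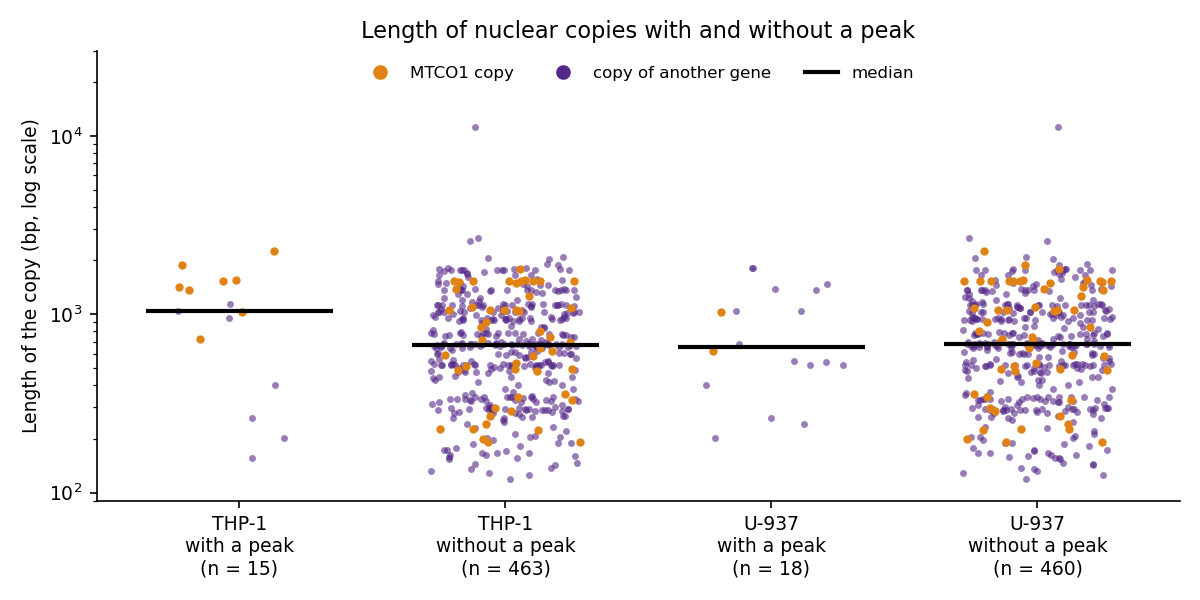
Length of each copy (points, vertical log axis, bp) with and without a peak in THP-1 and U-937, with MTCO1 copies in orange, copies of other genes in purple and the median as a black line. The THP-1 median is 1047 bp with a peak and 675 bp without, and the U-937 medians are 653 and 676.5 bp.

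The THP-1 peaks at MTCO1 copies lay inside the copies. All 8 were wholly within their copy. The order of neighbouring copies gave the direction of the insert for 6 of the 8, and distances could then be taken from the end of the copy that faces MTND2. The MTCO1P24 peak covered 529 to 1159 bp from that end, and the MTCO1P11 peak covered 644 to 1269 bp. Their summits, at 718 and 699 bp, were 19 bp apart on copies whose lengths differ by 30 bp. Summits lay at 147 bp in MTCO1P18, 666 bp in MTCO1P22, 922 bp in MTCO1P10 and 1130 bp in MTCO1P4. MTCO1P22 is shorter than the parent gene and MTCO1P10 and MTCO1P4 are longer, so that equal distances need not be equal sequence.

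Measured to the neighbouring MTCO2 copy, the 6 summits fell into different distances. They were 765 bp away in MTCO1P10, 840 bp in MTCO1P22, 974 bp in MTCO1P24 and 976 bp in MTCO1P11, and 1337 bp in MTCO1P4 and 1417 bp in MTCO1P18. The summit lay 14 to 202 bp from the centre of the copy in 5 of these 6 copies and 562 bp from it, towards MTND2, in MTCO1P18. The copies lie on 5 chromosomes. In hg38 the peaks are on chromosome 7 at 57188733 to 57189150 (MTCO1P10), on chromosome 9 at 5097310 to 5097935 (MTCO1P11), on chromosome 8 at 103089887 to 103090354 (MTCO1P4), on chromosome 2 at 131383411 to 131384011 (MTCO1P18), and on chromosome 5 at 98410633 to 98411263 (MTCO1P24) and 100054287 to 100054697 (MTCO1P22). No U-937 peak overlapped any of these 6 copies.

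**Figure D4:**
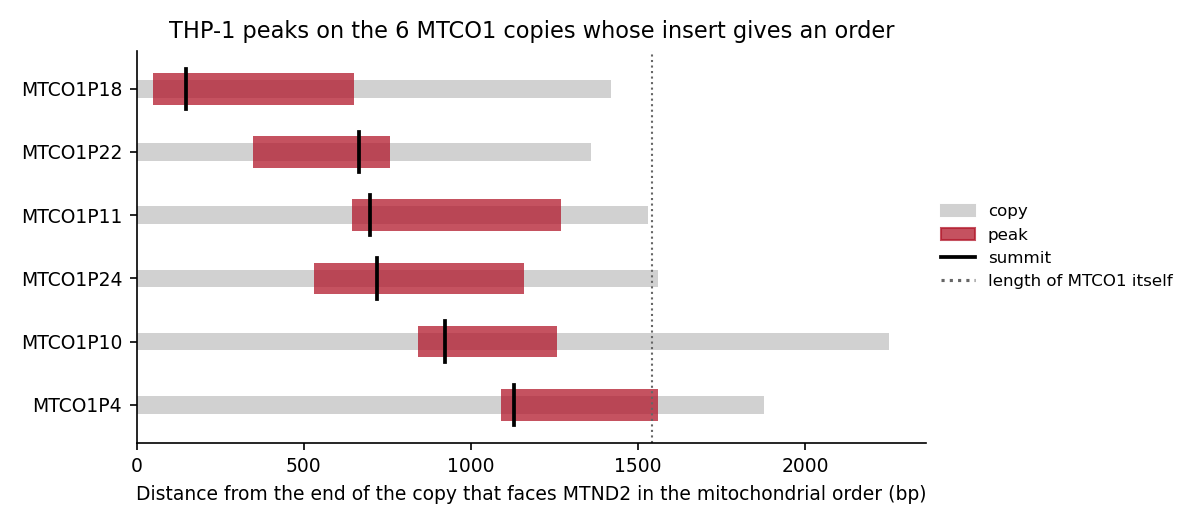
Position of the THP-1 peaks (red) and their summits (black) on the 6 MTCO1 copies (grey) with a known direction, as distance in bp from the end facing MTND2. The dotted line is the 1542 bp length of MT-CO1. Summits lie between 147 bp in MTCO1P18 and 1130 bp in MTCO1P4.

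The U-937 peaks at MTND5 and MTND6 copies each crossed a place where copies of both genes meet. There were 26 places where an MTND5 and an MTND6 copy lay within 100 bp of each other. A U-937 peak crossed 3 of them and a THP-1 peak 0, a comparison chosen after the values were seen. All 3 are on chromosome 5. The peak over MTND5P12 and MTND6P3 is at 94568920 to 94569114, with its summit 79 bp into MTND6P3. The peak over MTND6P22 and MTND5P10 is at 100046457 to 100047019, with its summit 110 bp into MTND6P22. It covered most of MTND6P22. The peak over MTND6P4 and MTND5P11 is at 134924519 to 134924827, with its summit 54 bp from the end of MTND5P11. MTND5P10 and MTND5P11 have the 1812 bp of MT-ND5, while MTND5P12 is shorter, with 1480 bp. The MTND6 copies of 521, 522 and 542 bp are close to the 525 bp of MT-ND6.

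MTND4 copies carried further U-937 peaks on the same inserts. The MTND4P35 peak covered 679 to 909 bp from the end facing MTND4L, with its summit at 771 bp, in a copy of 1375 bp. The MTND4P12 peak was wider, covered 407 to 1327 bp and had its summit at 1182 bp in a copy of 1376 bp. The wider interval thus takes in the narrower one, with the summits at different places. The MTND4P24 peak on the X chromosome lay on a fragment of 399 bp.

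A few inserts held several peaks. The insert from MTCYBP22 to MTCO1P22 on chromosome 5 (100045928 to 100055045) has 11 copies in reverse order. It carried the THP-1 peak at MTCO1P22 and the U-937 peaks at MTND4P35 and across MTND6P22 and MTND5P10, which do not overlap. The insert from MTND5P12 to MTCYBP35 carried the THP-1 peak at the cytochrome b copy MTCYBP35 and the U-937 peak across MTND5P12 and MTND6P3. The insert from MTCYBP18 to MTND3P25 on chromosome 5 (134923303 to 134928527) carried 2 U-937 peaks and 0 THP-1 peaks. The insert from MTND1P23 to MTCO3P12 near the start of chromosome 1 (629062 to 634922) carried the THP-1 peak at MTND2P28 and U-937 peaks at MTND2P28 and across MTATP6P1 and MTCO3P12.

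**Figure D5:**
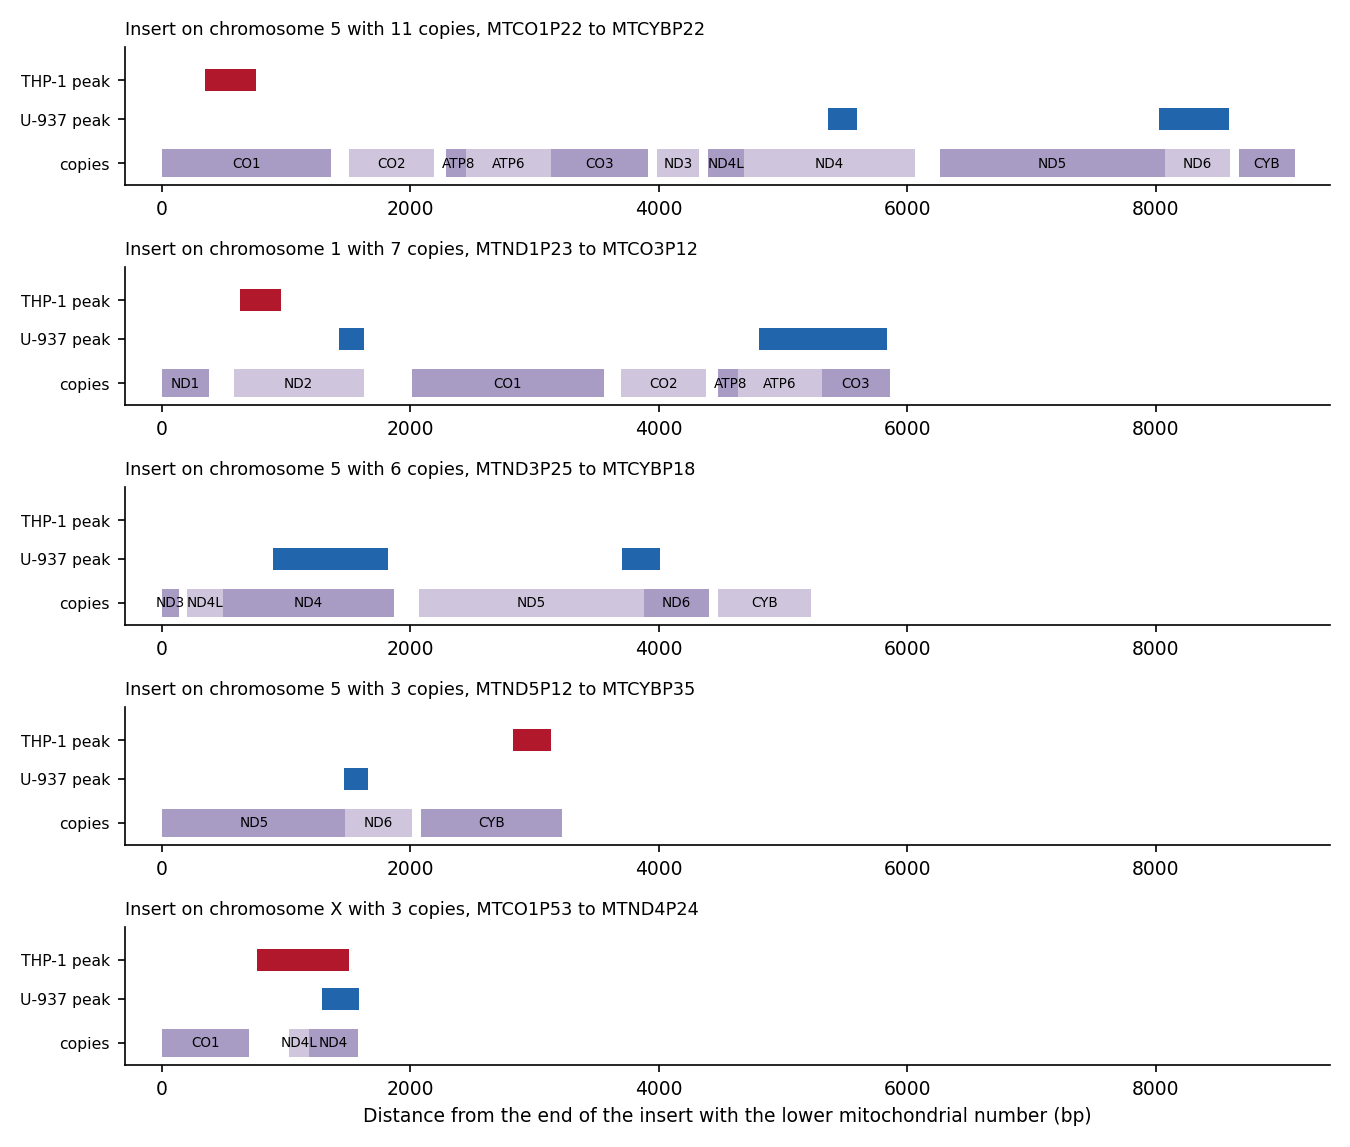
The 5 inserts of at least 3 copies with a U-937 peak, drawn in the mitochondrial order, with distance in bp on the horizontal axis. Purple blocks are copies, red bars THP-1 peaks and blue bars U-937 peaks. THP-1 and U-937 peaks overlap on the X chromosome insert and lie apart on the chromosome 1 insert and on both chromosome 5 inserts that carry peaks of both lines.

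Counted by insert, 13 of 178 carried a THP-1 peak (7.30%, 3.95 to 12.2) and 10 carried a U-937 peak (5.62%, 2.73 to 10.1). Both lines had a peak in 6 inserts, THP-1 alone in 7, U-937 alone in 4 and neither in 161. Of the 24 inserts with 6 or more copies, 5 carried a THP-1 peak (20.8%, 7.13 to 42.2) and 3 a U-937 peak (12.5%, 2.66 to 32.4). Of the 76 inserts with 1 copy, 2 carried a THP-1 peak (2.63%) and 4 a U-937 peak (5.26%). Inserts with more copies generally span more sequence, which gives a peak more room to fall. These shares were not set against span or against like stretches elsewhere, and the difference was not tested. Of the 10 longest inserts 2 carried a peak. The insert of 12 copies from MTND1 to MTCYB on chromosome 2 (130271786 to 130283329) and that on chromosome 4 (155451617 to 155463823) carried none.

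In both lines 5 copies had a peak, against 0.0770% of all genes and 0.00686% of the other pseudogenes. At MTATP8P2 and MTATP6P28, which overlap each other on chromosome 2, the THP-1 peak at 87824890 to 87825406 and the U-937 peak at 87824890 to 87825422 began at the same base and shared 517 bp. Their folds were 8.59 for the THP-1 peak (rank 334) and 22.03 for the U-937 peak (rank 1), and their summits lay 319 bp apart. At MTCO1P2 on chromosome 14 the THP-1 peak at 32484181 to 32484786 and the U-937 peak at 32484340 to 32484887 shared 447 bp. The fold there was 5.18 for the THP-1 peak (rank 696) and 20.4 for the U-937 peak (rank 2).

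At MTND4P24 on the X chromosome the THP-1 peak at 126472467 to 126473210 and the U-937 peak at 126472992 to 126473293 shared 219 bp, with summits 37 bp apart. Its folds were 6.87 for the THP-1 peak and 10.6 for the U-937 peak. At MTND2P28 the peaks did not overlap. The THP-1 peak at 629693 to 630017 ended 473 bp before the U-937 peak at 630491 to 630685. The 3 sites with overlapping peaks were part of the 25 THP-1 peaks that overlapped a U-937 peak anywhere on these chromosomes. Of all 948 THP-1 peaks, 13 were at copies. In all, 28 copies had a peak in either line, 10 of them in THP-1 only and 13 in U-937 only, and 450 had none. Over all genes of the table, 309 had a THP-1 peak, 1738 a U-937 peak and 45 both. Most genes with a peak thus also had it in 1 line only.

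Copies that overlap the span of a protein-coding gene by at least 1 bp, here called within it, numbered 110 of 478. Of these, 6 had a THP-1 peak (5.45%, 2.03 to 11.5) and 9 a U-937 peak (8.18%, 3.81 to 15.0). Outside such spans the share was 2.45% in each line (9 of 368, 1.12 to 4.59). Several of these copies share a peak or an insert, which the intervals leave out of account, and the difference was not tested. MTCO1P2 lies within AKAP6, which encodes an anchoring protein of protein kinase A. MTATP8P2 and MTATP6P28 lie within RGPD2, MTCO1P11 within the overlapping spans of INSL6 and of JAK2, which encodes a cytokine receptor kinase, and MTCO2P2 within SMAD2, which encodes a mediator of TGF-beta signals. The copies of the MTND5P12 insert lie within KIAA0825, and those of the MTCYBP18 insert that carried peaks lie within PCBD2. Whether they are in introns was not analysed, as the table gives gene spans without exons. MTCO1P10, MTCO1P24, MTCO1P18, MTCO1P22, MTCO1P4, MTCO1P40 and MTND4P24 lie outside protein-coding spans.

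Some peaks only touched a copy. The MTRNR2L12 peak at 96618201 to 96618512 on chromosome 3 shared 23 of its 312 bp with that gene, and its summit lay outside. MTRNR2L12 was the only MTRNR2L gene with a peak in either list, 1 of 13 in U-937 and 0 of 13 in THP-1. The THP-1 peak at MTND1P14 shared 147 of its 396 bp with the copy, and its summit lay 166 bp beyond it. The other 12 peaks in each line had the summit inside a copy. Over the 15 pairs of a copy and a peak in THP-1 and the 18 pairs in U-937, in which a peak over 2 copies counts with each, the median distance from the summit to the centre of the copy was 202 bp for THP-1 and 263 bp for U-937. Counting copies that hold the summit gave 12 of 478 in each line, against 0.512% of all genes for THP-1 and 2.41% for U-937. For U-937 the share of the copies was thus close to that of all genes. Counting copies with a peak inside or within 1000 bp of their span gave 27 of 478 for THP-1 and 30 of 478 for U-937. Among all genes these shares were 0.669% and 4.56%.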

How the data were processed

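Peak lists of FOXO3A CUT&Tag were used for THP-1 replicate 1 and U-937 replicate 1. The submitters' processing notes name Bowtie2, Picard and build hg38. They give no versions or roles, and the peak caller and its background are not stated. The authors deposited 1 list per library with an integer score, a fold enrichment (a ratio), a -log10 p-value and a -log10 q-value per peak, as read from the narrowPeak layout. The score was not used. The depth is unknown.

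Copies were matched by symbol to the RefSeq gene table of the same assembly, which gives neither strand nor exons. Overlaps, distances and exact (Clopper-Pearson) 95% intervals were computed in Python 3.11.15 with pandas 2.3.3 and scipy 1.17.1. A share of 0 was given the limit of 3 counts. The overlap procedure was tested on simulated data. No test between lines was made.

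The members and groupings were chosen with earlier results of these data known. The rule for named copies took those with a peak in both lines, the 10 strongest per line, the strongest per parent gene, MTRNR2L genes with a peak and the 5 longest without one. Other MTCO1 copies were named with their values in view. Alternatives covered the -log10 q threshold, the overlap rule, the copies kept and the merge distance. No sequence of the copies was analysed here.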

Additional observations from a re-analysis of the deposited data

Results flagged for a closer look

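Part of the THP-1 list lay outside the chromosomes compared. It held 245 peaks on contigs outside the chromosomes and 89 peaks on chromosome Y, and the U-937 list held 0 of either kind. Whether such peaks were removed from the U-937 list is unknown, and the difference was not tested. Contigs have no coordinates in the gene table, so copies there were not analysed. Chromosome Y has 8 copies under the same symbols, and 0 of them overlapped a peak in THP-1 or in U-937.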

How the results depend on the processing

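Of 31 other settings chosen in advance, 24 left the count within 1.5 times, or the median within its interval. At -log10 q of at least 5, the numbers of copies and of inserts were unchanged. Every peak at a copy reached that value, so this setting could not change them, nor the median folds and lengths. Each of these unchanged results is counted separately among the 24. With at least 50% of the peak inside the copy, 11 copies had a U-937 peak and 2 had one in both lines. With the summit inside, 3 had one in both lines. With spans widened by 1000 bp, 27 copies had a THP-1 peak, 30 a U-937 peak and 10 both. A peak can then reach neighbouring copies, and peaks that touch no copy enter, such as those beside MTCYBP13. Among copies of at least 300 bp, 3 had a peak in both lines. Leaving out a library gave no value, since no other library of either line held peaks. No paired analysis was possible because no result came from a test and only 1 library of each line held peaks. Of the MTND5 and MTND6 copies 6 had a U-937 peak and 3 had its summit inside, while MTCO1 counts under the summit rule were again 8 for THP-1 and 2 for U-937. Widened spans gave 9 MTCO1 copies for THP-1 peaks and 4 for U-937 peaks. They gave 1 MTND5 or MTND6 copy for THP-1 peaks, against 0 without widening, and 6 for U-937 peaks. These last settings were chosen after seeing the data. Depth could not be assessed.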

Other observations

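Several peaks lay beside copies without touching one. Within 5 kb of a copy there were 2 such THP-1 and 3 such U-937 peaks. On chromosome 17 the THP-1 peak at 22521207 to 22521719 and the U-937 peak at 22521368 to 22521570 overlapped between MTCYBP13 and MTRNR2L1, copies of genes that flank the control region and MT-RNR1 on the mitochondrial circle. The THP-1 peak had a fold of 26.8 (rank 21) and the U-937 peak 15.2 (rank 6), and they lay 497 and 658 bp from MTCYBP13. On chromosome 5 the THP-1 peak at 80652052 to 80652388 and the U-937 peak at 80652052 to 80652427 began at the same base, 1021 bp from MTRNR2L2, the first with a fold of 8.30 and the second with 7.49. On chromosome 8 a U-937 peak of fold 8.05 lay 1288 bp from MTND2P7. No MTRNR1 copy is listed under these symbols, so the table does not show what sequence lies under the peaks beside MTRNR2L1 and MTRNR2L2. Together with the 3 sites described above, 5 of the 25 THP-1 peaks that overlapped a U-937 peak lay at or within 5 kb of a copy. Of all 948 THP-1 peaks, 13 were at copies and 2 more lay within 5 kb of one. The difference was not tested.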
